A study of Mus musculus with 135 samples.

Results

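The comparison set 6 single ovulated oocytes from old mice lacking Tet1 (old Tet1KO) against 12 from old wild-type mice (old WT), 18 of the 135 samples of the study. The members were chosen by their titles: numbered oocytes of one count table, labelled Old_Tet1-/- or Old_WT, all at metaphase II, of C57BL6/129 background and 10 to 12 months of age. Old WT oocytes fell into sets Old_WT_365 with 5 oocytes and Old_WT_247 with 7. Old Tet1KO oocytes fell into sets Old_Tet1-/-_209 with 5 and Old_Tet1-/-_315 with a single oocyte. Titles of a set share its number, so its oocytes were taken to share a source and were not counted as replicates of the genotype. No label connects a set to an animal, litter or day, nor do labels say which part of Tet1 was removed. Each old group thus held 2 sets, and p-values measure only the spread between sets, estimated in a joint fit of 13 sets. Oocytes from mice of 2 to 4 months served as a second contrast: young WT sets Young_WT__246, T148, T211 and T231, and young Tet1KO sets Young_Tet1-/-_201 and T146. The fit also held sets from mice lacking Tet2 (Tet2KO), the young sets T213 and T214 and the old set S161.

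TET enzymes oxidise 5-methylcytosine in DNA, a step through which methylation can be removed. Oocytes set up most of their DNA methylation during growth, and the fully grown, ovulated oocyte is transcriptionally silent, so its RNA is a store laid down earlier and used through fertilization. Meiotic errors, loss of chromosome cohesion and altered mitochondria are well-known features of oocytes from ageing females, and a comparison of old knockout and old wild-type oocytes asks which stored transcripts differ without TET1 at that age.

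Old oocytes held from 2971657 to 10362312 counts in old WT and from 3842975 to 8250490 in old Tet1KO, with 16329 to 19742 and 16748 to 17536 genes detected. Expression was correlated across 6876 genes within sets at a median Spearman coefficient of 0.936 in Old_WT_365, 0.935 in Old_WT_247 and 0.927 in Old_Tet1-/-_209. The lone oocyte of Old_Tet1-/-_315 correlated with Old_Tet1-/-_209 at a median of 0.888 and with old WT at 0.904, so it was no nearer to the other oocytes of its genotype than to wild type. Sets of the same genotype also differed in wild type, where Old_WT_365 correlated with Old_WT_247 at a median of 0.896. Old_Tet1-/-_209 correlated with old WT at 0.867. All 10 oocyte markers, among them Zp3 and Mos, were detected in both groups. Of the markers of other cells, 6 of 17 granulosa, 5 of 9 stromal, 5 of 11 macrophage and 5 of 9 endothelial or red blood cell genes had 0 counts over all old WT oocytes, and 7, 5, 8 and 5 had 0 counts over all old Tet1KO oocytes. The rest had counts, and the highest of each type were Cyp19a1, Dcn, Csf1r and Pecam1. Their set means were 30, 1.66, 8.55 and 100 CPM (counts scaled to a common total) in old WT. In old Tet1KO they were 25.8, 1.20, 6.20 and 74.9 CPM. A pair of overlapping genes, AY036118 and Gm42418, took 1.48% to 2.39% of the counts in old WT oocytes and 2.13% to 6.85% in old Tet1KO oocytes. Oocytes Old_Tet1-/-_209_3 and Old_Tet1-/-_209_4 had the highest shares, 6.85% and 5.14%. The part of this shift in the results was not tested, and results are given with and without these oocytes where that changed a call.

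Of 14418 genes tested with edgeR's quasi-likelihood test on the counts of each set, 3 rose in old Tet1KO oocytes and 2 fell at a Benjamini-Hochberg adjusted p under 0.05, which is 0.0208% and 0.0139% of the genes tested (0.0347% in all). The genes that rose were Pnpla3, a lipid hydrolase of lipid droplets, Gm49513, a gene model that overlaps it, and Celsr1, a cadherin of planar cell polarity. The genes that fell were Dph6, an enzyme of diphthamide synthesis, and Mfap1b, a copy of a splicing factor gene. At an unadjusted p under 0.05, 970 genes were higher (6.73%) and 824 lower (5.72%), 12.4% together. DESeq2 called 212 genes higher (1.47%) and 101 lower (0.701%) on the same sums, and limma called 3 and 2; all 5 genes of edgeR were among those of DESeq2 and 4 of them among those of limma, with Dph6 left out (limma adjusted p = 0.0636). Without Old_WT_247 no gene passed, and 1095 genes had an unadjusted p under 0.05. Across oocytes, 56 genes had all 6 knockout values above all 12 wild-type values (0.388%) and 79 had them all below (0.548%), and the 5 called genes were among these. The median log2 change of all genes was -0.01, and 49.0% of them were higher.

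Tet1, the gene targeted in the knockout, was scarcely expressed at this stage even in wild type. Its lowest, median and highest level over the 12 old WT oocytes was 0, 1.25 and 5.36 CPM (counts scaled to a common total), and 10 of the 12 had a count. In old Tet1KO a single count was found, in oocyte Old_Tet1-/-_209_7, against 82 counts in old WT. Scaled to the totals, the knockout level was 2.31% of the wild-type level, with an exact 95% interval of 0.0578% to 13.2% that covers counting error only. The fitted change did not pass the test (log2 -5.12, SE 0.97, adjusted p = 0.137 with edgeR); it passed with DESeq2 (adjusted p = 0.0169) and with edgeR without a CPM minimum (adjusted p = 8.76e-05). Tet2, the enzyme's relative, lay between 1.44 and 6.95 CPM in old WT and between 0.97 and 3.38 in old Tet1KO, with overlap and an adjusted p of 0.345. Tet3, the abundant TET enzyme of the oocyte, lay between 645 and 943 CPM in old WT and between 526 and 718 in old Tet1KO (log2 -0.02, SE 0.20, adjusted p = 0.970 with edgeR). The Tet3 change was 0.00 or above with DESeq2 or its size factors, with the 4 old sets alone, and without Old_WT_247 or Old_Tet1-/-_209.

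Pnpla3 encodes patatin-like phospholipase domain containing 3, which acts on the lipids of lipid droplets, and lies on chromosome 15 at 84167837 to 84187236 of mm10, on the forward strand. The 12 old WT oocytes held 0 to 2.67 CPM of it, with a median of 1.38. In the knockout, the 5 oocytes of Old_Tet1-/-_209 held 191, 160, 183, 189 and 201.3 CPM and the oocyte of Old_Tet1-/-_315 held 123. The groups did not overlap, and the lowest knockout oocyte stood far above the highest wild-type oocyte. Over sets, the mean was 1.497 ± 0.105 CPM in old WT and 154 ± 43.4 in old Tet1KO (SD, n = 2 sets each), a 103-fold difference of means (log2 6.84, SE 0.62, adjusted p = 0.00258 with edgeR). Gm49513, at 84181914 to 84195881 on the same strand, ranged from 0 to 2.94 CPM in old WT and from 60.8 to 110 in old Tet1KO (log2 6.20, SE 0.51, adjusted p = 0.00188). It overlaps the end of Pnpla3, and reads in the overlap were counted for both, so the signals cannot be assigned separately. Samm50, a mitochondrial outer membrane assembly gene that also overlaps Gm49513, held 1.33 to 9.39 CPM in old WT and 3.95 to 9.84 in old Tet1KO and did not pass (adjusted p = 0.718).

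Celsr1, 1.73 Mb from Pnpla3 between 85898929 and 86033777 on the reverse strand of chromosome 15, encodes an adhesion receptor of the cadherin family that orients cells in a sheet. Old WT oocytes ranged from 5.12 to 12.1 CPM with a median of 9.70. Oocytes of Old_Tet1-/-_209 held 52.8, 45.7, 82.5, 35.9 and 73.2 CPM, and the oocyte of Old_Tet1-/-_315 held 44.97. Every knockout oocyte lay above every wild-type one. Set means were 9.09 ± 0.855 and 52.1 ± 10.0 CPM (SD, n = 2 sets each), 5.73-fold apart (log2 2.68, SE 0.32, adjusted p = 0.0138 with edgeR). The call was lost without Old_WT_365, Old_WT_247 or Old_Tet1-/-_315 (adjusted p = 0.101, 0.211 and 0.0742).

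Dph6 encodes the ligase of the last step of diphthamide synthesis, the modified histidine of elongation factor 2. It lies on the reverse strand of chromosome 2 at 114516416 to 114654964. Old WT oocytes of Old_WT_365 ranged from 154 to 322 CPM and those of Old_WT_247 from 288 to 872. In the knockout the values were 10.3, 4.41, 15.7, 6.25 and 6.72 CPM in Old_Tet1-/-_209 and 9.09 CPM in the oocyte of Old_Tet1-/-_315. No knockout oocyte came near the wild-type range, and the wild-type sets themselves differed, at 252 and 576 CPM. Set means were 414 ± 229 CPM in old WT and 8.98 ± 0.163 in old Tet1KO (SD, n = 2 sets each), 46.1-fold apart (log2 -5.36, SE 0.62, adjusted p = 0.0138 with edgeR). Leaving out Old_WT_247, Old_Tet1-/-_209 or Old_Tet1-/-_315 ended the call (adjusted p = 0.0913, 0.0537 and 0.0908).

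Mfap1b is a copy of Mfap1a, both coding for a spliceosome component, and lies on the reverse strand of chromosome 2 at 121460235 to 121474067. It held 43.7 to 50.6 CPM in Old_WT_365 and 71.8 to 97.7 in Old_WT_247. The 6 knockout oocytes held 4.92, 5.81, 3.98, 7.81, 4.4 and 7.15 CPM, all below wild type. Set means were 67.6 ± 28.9 and 6.23 ± 1.30 CPM (SD, n = 2 sets each), 10.9-fold apart (log2 -3.28, SE 0.38, adjusted p = 0.0138 with edgeR). The call was lost without Old_WT_247, Old_Tet1-/-_209 or Old_Tet1-/-_315 (adjusted p = 0.0913, 0.0515 and 0.0742) and without the term for the naming series (adjusted p = 0.623). Mfap1a, at 121491911 to 121506665 on the same strand, held 30.5 to 62.1 CPM in old WT and 20.2 to 29.3 in old Tet1KO. All 6 knockout oocytes were below all 12 wild-type ones for Mfap1a too, but the change was 1.63-fold and did not pass (log2 -0.53, SE 0.24, adjusted p = 0.401 with edgeR). The longest transcripts of Mfap1a and Mfap1b, 4198 and 3362 bases, were 91.5% identical over 3362 bases. Counting allowed multi-mapped reads but asked for a mapping quality of 30 or more. Whether reads that match both copies were counted for each or lost was not tested.

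The start regions of Pnpla3, Dph6, Mfap1b and Mfap1a are shown because CpG sites are the substrate of the enzyme that was removed. No methylation was measured. For the called genes Celsr1 and Gm49513 no start region was available. Each stretch runs 5′ to 3′ on the strand of its gene from 250 bases before the start to 50 after it, from RefSeq on GRCm38.p6, with every CpG in capitals. Pnpla3 is at chr15:84167566-84167865 on the forward strand, and Dph6 (chr2:114654915-114655214), Mfap1b (chr2:121473974-121474273) and Mfap1a (chr2:121506607-121506906) are on the reverse strand.
Pnpla3: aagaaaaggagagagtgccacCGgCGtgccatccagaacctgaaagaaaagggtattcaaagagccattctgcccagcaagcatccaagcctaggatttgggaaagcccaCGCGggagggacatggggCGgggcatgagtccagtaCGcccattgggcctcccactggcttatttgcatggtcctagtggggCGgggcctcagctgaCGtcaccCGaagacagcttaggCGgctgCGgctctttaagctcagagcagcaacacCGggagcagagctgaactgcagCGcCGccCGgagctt
Dph6: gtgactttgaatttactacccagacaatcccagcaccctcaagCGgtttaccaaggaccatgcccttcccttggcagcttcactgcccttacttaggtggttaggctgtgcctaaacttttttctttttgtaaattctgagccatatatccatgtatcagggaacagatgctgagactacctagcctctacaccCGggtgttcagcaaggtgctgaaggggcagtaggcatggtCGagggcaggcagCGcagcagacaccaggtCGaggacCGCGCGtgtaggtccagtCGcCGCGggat
Mfap1b: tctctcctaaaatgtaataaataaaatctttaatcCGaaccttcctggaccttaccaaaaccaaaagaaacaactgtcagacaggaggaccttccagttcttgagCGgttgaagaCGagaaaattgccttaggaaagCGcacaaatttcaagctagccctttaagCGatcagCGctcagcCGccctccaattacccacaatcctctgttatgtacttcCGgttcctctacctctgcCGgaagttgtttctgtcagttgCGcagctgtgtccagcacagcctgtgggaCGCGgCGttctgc
Mfap1a: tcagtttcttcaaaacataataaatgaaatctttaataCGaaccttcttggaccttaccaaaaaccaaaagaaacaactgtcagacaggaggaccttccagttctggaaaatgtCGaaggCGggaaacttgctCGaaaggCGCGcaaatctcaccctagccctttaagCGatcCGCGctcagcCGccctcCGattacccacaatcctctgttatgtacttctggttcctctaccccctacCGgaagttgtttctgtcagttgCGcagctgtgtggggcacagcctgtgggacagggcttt
They held 15, 11, 13 and 13 CpG, against quartiles of 3, 7 and 20 over 32851 promoters of 300 bases, so none stood at either end of that distribution. The stretches of Mfap1a and Mfap1b differed by 44 edits in 300 bases (85.3% identity), and the copy that fell and the copy that did not pass had the same number of CpG.

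**Figure D1:**
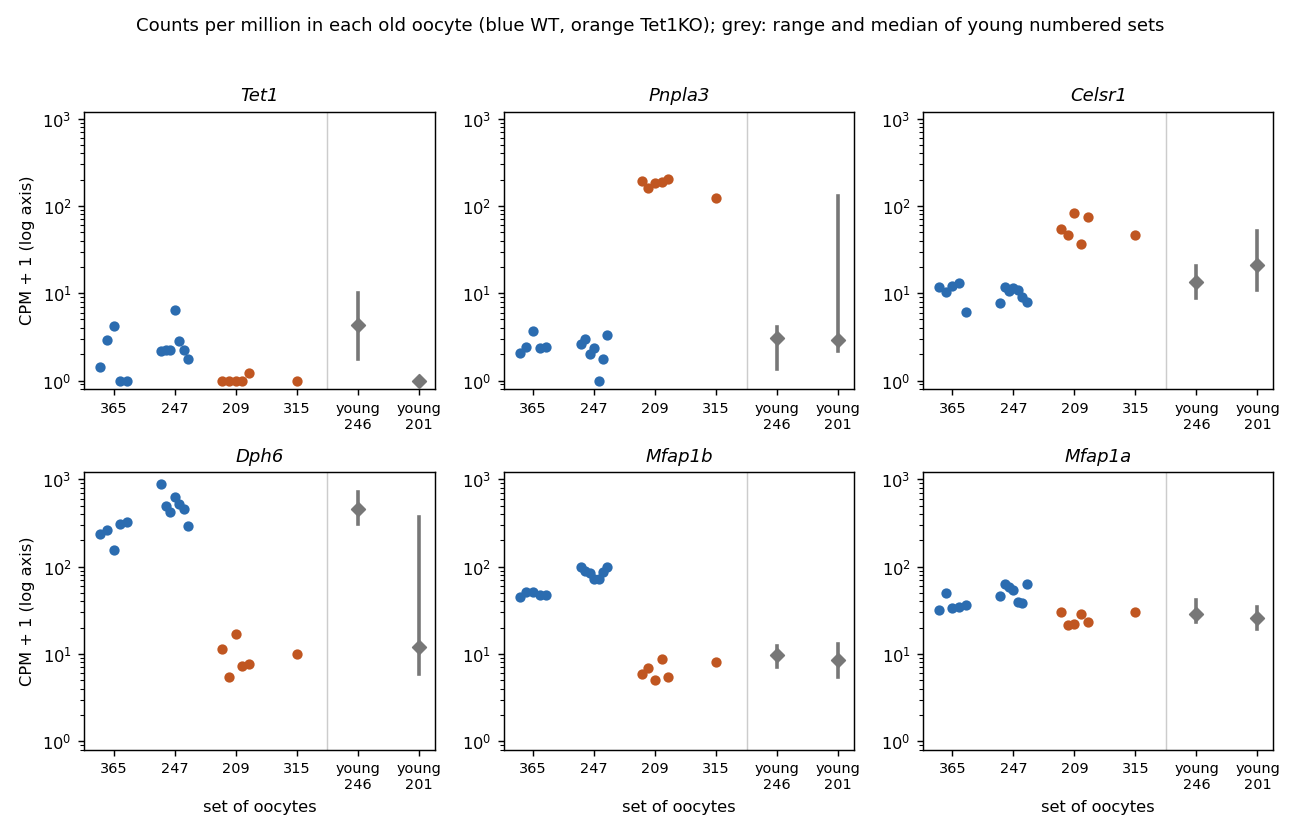
CPM plus 1 on a log axis for Tet1, the called genes Pnpla3, Celsr1, Dph6 and Mfap1b, and Mfap1a. Each point is 1 old oocyte by set, blue WT and orange Tet1KO, labelled by the number that ends its name; grey bars span the lowest to highest oocyte of young WT Young_WT__246 and young Tet1KO Young_Tet1-/-_201, with the median as a diamond. Old groups do not overlap for the 4 called genes, and young WT Young_WT__246 lies at the old knockout level for Mfap1b only among them.

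The same genes were read in young oocytes, where they were less uniform across sets of a genotype. Pnpla3 was at 1.92 CPM in young WT Young_WT__246 and between 1.71 and 2.05 in sets T148, T211 and T231. In young Tet1KO it was at 71.4 to 145 CPM over the oocytes of set T146, but in Young_Tet1-/-_201 the lowest, median and highest were 1.20, 1.88 and 128 CPM, so most oocytes of that knockout set were at the wild-type level. Celsr1 was at 6.81 to 13.1 CPM in the young WT sets, 23.8 in Young_Tet1-/-_201 and 29.9 in set T146. Dph6 was at 350 to 584 CPM in the young WT sets and at 291 in young Tet1KO set T146, while Young_Tet1-/-_201 had a median of 11.1 CPM and a highest oocyte of 365.3. Mfap1b was at 45.1 to 77.02 CPM in T148, T211 and T231 and 50.4 in young Tet1KO set T146. It was at 7.79 CPM in Young_Tet1-/-_201 and at 8.51 in Young_WT__246, a wild-type set whose oocytes, 6.00 to 11.4 CPM, overlapped the old knockout range. Low Mfap1b was thus found in knockout and wild-type sets, and high Mfap1b in both too.

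The difference between the genotypes was compared between ages in the same fit. No gene passed for an unequal effect in old and young oocytes with edgeR (0%), where 841 had an unadjusted p under 0.05 (5.83%); limma called 0 and DESeq2 4 higher and 13 lower, Dph6 and Mfap1b among these (adjusted p = 0.000161 and 4.93e-06 with DESeq2). With no CPM minimum edgeR called 81 higher and 118 lower, among them Dph6, Mfap1b, Pnpla3 and Gm49513, and without young Tet1KO set T146 it called Pnpla3 (adjusted p = 0.0451). Mfap1b had the lowest adjusted p of the called genes (0.516, age difference log2 -3.18, SE 0.47), followed by Dph6 (log2 -3.83, SE 0.70, adjusted p = 0.813). Pnpla3 differed by a log2 of 1.79 (SE 0.68, adjusted p = 0.813) and Celsr1 by 1.24 (SE 0.40, adjusted p = 0.813). The test uses 2 young Tet1KO sets that, as above, stood apart from each other for Pnpla3, Dph6 and Mfap1b.

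The called genes lie in 2 stretches of the genome, and the genes near them were more often on the same side at an unadjusted p than genes at large, as described without a test. Within 5 Mb of Pnpla3, 15 of 102 tested genes (14.7%) were higher at an unadjusted p under 0.05, against 6.73% of all genes. The 15 include the called genes Celsr1 and Gm49513, the latter sharing reads with Pnpla3. Within 5 Mb of Celsr1 the count was 12 of 93 (12.9%), the called Pnpla3 and Gm49513 included, with 78 genes shared between both windows. Within 5 Mb of Mfap1b, 23 of 99 genes (23.2%) were lower, and within 5 Mb of Dph6, 11 of 55 (20%), against 5.72% of all; these windows share 25 genes, and Mfap1b and Dph6 start 6.94 Mb apart. Around Tet1 on chromosome 10, 1 of 52 genes was higher and 2 were lower. Chromosome 2 held 16 of the 79 genes whose knockout oocytes were all below wild type (20.3%) with 7.46% of the tested genes, and chromosome 15 held 6 of the 56 that were all above (10.7%) with 3.82%. Chromosomes with no called gene also held more of these than their share of tested genes: chromosome 13 held 10 of the 56 (17.9%) with 4.58% of the tested genes, and chromosome 3 held 11 of the 79 (13.9%) with 4.92%. A test was not made, since neighbouring genes are not independent and the windows were centred on genes chosen from the same values.

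Named after their values were seen, the neighbours included genes that were nearly absent in the knockout. Spint1, a membrane protease inhibitor 2.22 Mb from Mfap1b, had 366 counts in old WT and 2 in old Tet1KO, or 8.10 CPM in Old_WT_247, 3.67 in Old_WT_365, 0.0948 in Old_Tet1-/-_209 and 0 in Old_Tet1-/-_315 (adjusted p = 0.0506 with edgeR). It was at 0.0806 CPM in young WT Young_WT__246 and at 0.112 in young Tet1KO Young_Tet1-/-_201. Rmdn3, a mitochondrial tether, was at 27.6 and 14.8 CPM in the old WT sets, Old_WT_247 first, at 3.55 and 1.94 in Old_Tet1-/-_209 and Old_Tet1-/-_315, and at 2.63 in young WT Young_WT__246. Gm14085 was at 32.2, 17.7, 2.70, 2.91 and 3.95 CPM in the same order. For Spint1, Rmdn3, Gm14085 and Mfap1b, the young wild-type Young_WT__246 therefore stood with the old knockout sets. Pla2g4e, a phospholipase 1.29 Mb from Mfap1b, went the other way, at 4.62 and 12.4 CPM in the old WT sets, 38.4 and 41.3 in the old knockout sets, and 56.7 in Young_WT__246. On chromosome 15, Rtl6, a retrotransposon-derived gene, was at 2.63 and 6.55 CPM in the old WT sets and at 24.3 and 16.5 in the old knockout sets, with no overlap of oocytes (adjusted p = 0.150), and Efcab6 was at 76.8, 73, 207 and 130 CPM in that order (adjusted p = 0.138).

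**Figure D2:**
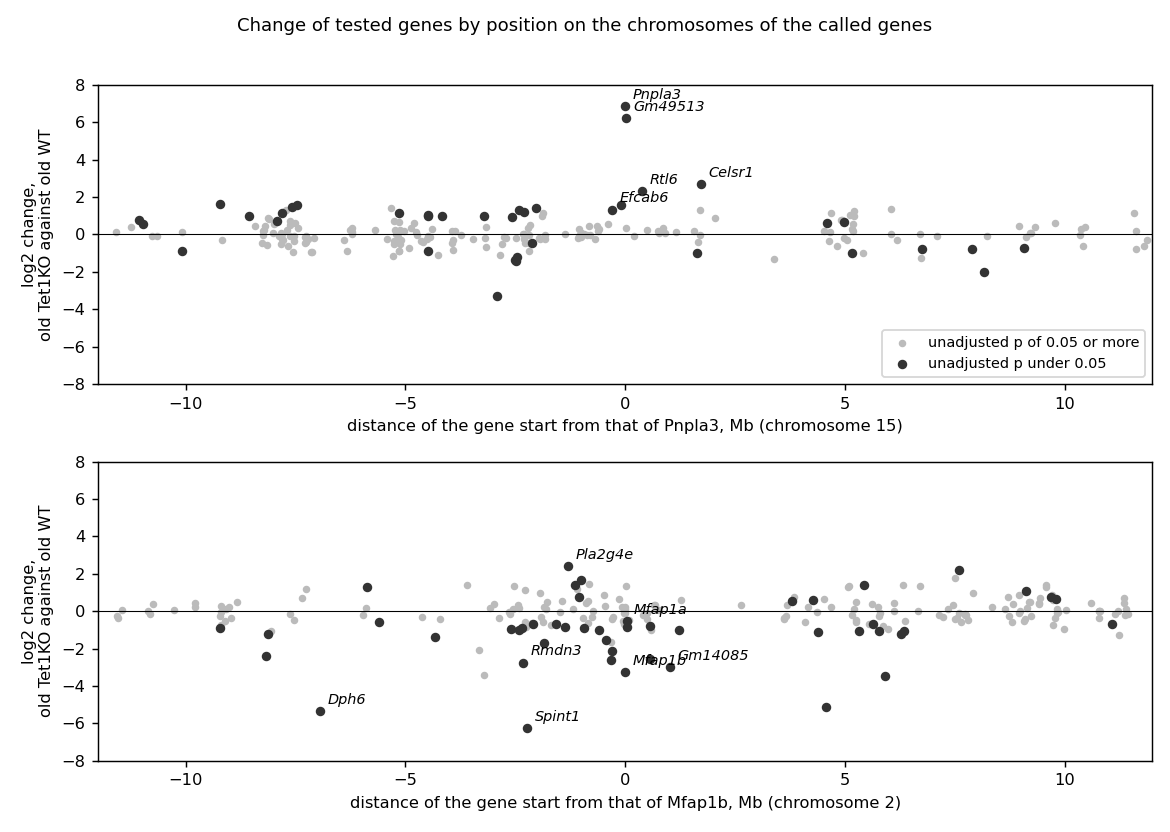
Log2 change in old Tet1KO against old WT of each tested gene by the distance of its start from that of Pnpla3 on chromosome 15 (top) and of Mfap1b on chromosome 2 (bottom), in Mb. Dark points have an unadjusted p under 0.05; on chromosome 2 dark points within 5 Mb of Mfap1b are mostly below 0, 23 of them against 6 above.

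Beyond the called genes, the 12 genes of next smallest p that were higher, each at a mean of 10 CPM or more in one old group, included Naa80, Jup, Naa10, Bmp5, Gm26903, Tmem229b, Arhgap4, Rab1b, Cmtr2, AY036118 and Rps26, and none of the 12 passed. With DESeq2 or with no CPM minimum all 12 passed, with DESeq2's size factors in edgeR Naa80 and Jup did (adjusted p = 0.0437 for both), and with limma 0 did. Naa80, the actin N-acetyltransferase, ranged from 3.73 to 10.5 CPM in old WT and from 13 to 47.6 in old Tet1KO (log2 1.86, SE 0.27, adjusted p = 0.0506 with edgeR). Jup, the junction protein plakoglobin, ranged from 21.6 to 98.3 CPM in old WT and from 84 to 583 in old Tet1KO (log2 1.88, SE 0.27, adjusted p = 0.0506 with edgeR). Bmp5, a growth factor of the BMP family, ranged from 350 to 789 CPM and from 737 to 1865. Rab1b, a GTPase of transport from the endoplasmic reticulum to the Golgi, ranged from 69.4 to 175 CPM and from 140 to 696. Cmtr2, a methyltransferase of the mRNA cap, ranged from 58.5 to 147 CPM and from 180 to 398. Only Naa80 and Cmtr2 of the 12, which were chosen by small p from the same values, did not overlap between the groups. Of all tested genes, 0.388% had all knockout oocytes above wild type. Bmp5 overlaps Gm26903, and Naa10, the catalytic subunit of an N-terminal acetyltransferase, overlaps Arhgap4, so these pairs share reads.

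The 12 genes varied together over the knockout oocytes. For all 12, the highest of the 6 oocytes was Old_Tet1-/-_209_3 or Old_Tet1-/-_209_4 and the lowest was Old_Tet1-/-_209_6, which lay above all wild-type oocytes for 2 of the 12. AY036118 is itself 1 of the 12, and the share it takes with Gm42418 was highest in Old_Tet1-/-_209_3 and Old_Tet1-/-_209_4 and lowest, at 2.13%, in Old_Tet1-/-_209_6. Without Old_Tet1-/-_209_3 and Old_Tet1-/-_209_4 the log2 change of Naa80 was 1.44 (adjusted p = 0.261) and that of Jup 1.29 (adjusted p = 0.275), while Pnpla3, Gm49513, Celsr1, Dph6 and Mfap1b passed as before. Changes also followed base composition: the median log2 change rose from -0.17 in the fifth of genes with the lowest GC content of their transcript to 0.17 in the fifth with the highest, a Spearman coefficient of 0.202 across 14402 genes, which are not independent. With each set's GC trend removed, 3 genes were higher and 3 lower, among them the 5 called genes. The part of GC content or of this pair of genes in the 12 was not tested.

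**Figure D3:**
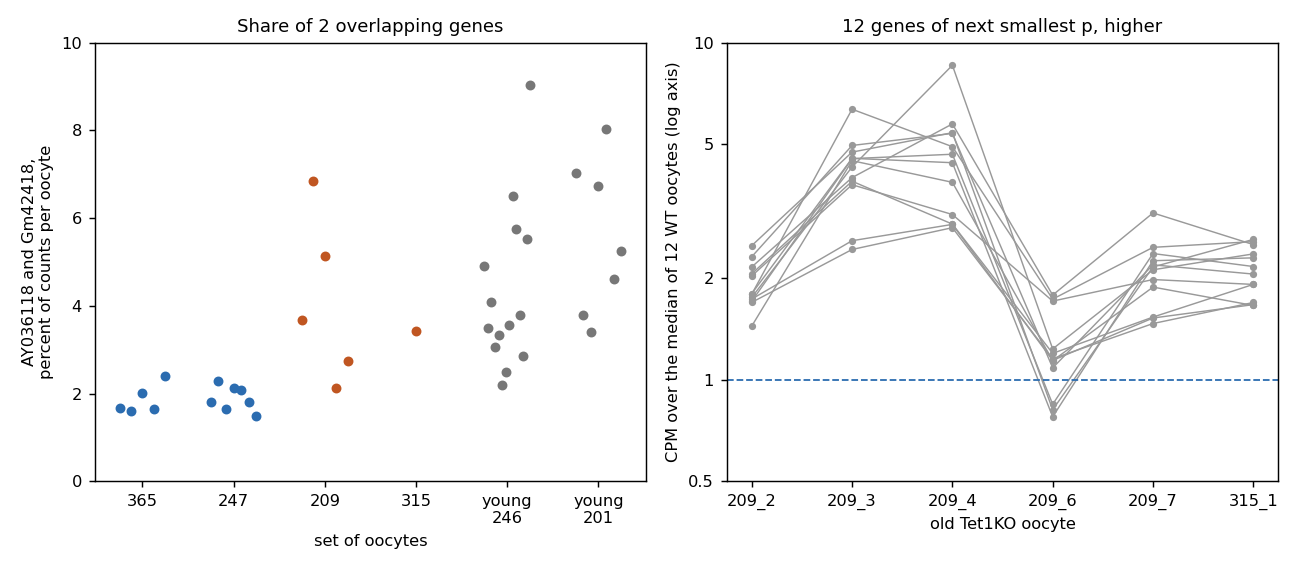
Left, percent of counts in AY036118 and Gm42418 together in each oocyte of the 4 old sets (blue WT, orange Tet1KO), labelled by the number that ends their names, and of young WT Young_WT__246 and young Tet1KO Young_Tet1-/-_201 in grey; old WT spans 1.48% to 2.39% and old Tet1KO 2.13% to 6.85%. Right, CPM of the 12 higher genes of next smallest p in each knockout oocyte over the median of the 12 old WT oocytes, on a log axis; Old_Tet1-/-_209_3 and Old_Tet1-/-_209_4 are highest and Old_Tet1-/-_209_6 is lowest for all 12.

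The 13 genes of next smallest p that were lower were Gm14085, Ccdc73, Cgn, Timm8a2, Rmdn3, Tmf1, Calr, Trim59, Dazl, Gm17575, Rbm44, Sap25 and Platr30, and none passed. With DESeq2 or with no CPM minimum all 13 passed, and with limma 1 did. For 9 of the 13 the knockout oocytes lay entirely below wild type, against 0.548% of all tested genes. The 13 were chosen by small p from the same values, so that count is no separate result. Old_Tet1-/-_209_6 was the highest of the 6 knockout oocytes for 7 of the 13. Trim59, a ubiquitin ligase, ranged from 173 to 658 CPM in old WT and from 14.4 to 32.5 in old Tet1KO, 15.1-fold between set means (log2 -3.75, SE 0.75, adjusted p = 0.150 with edgeR). It was at 130 CPM in young WT Young_WT__246 and at 195 in young Tet1KO Young_Tet1-/-_201, but at 23.5 and 31 in young WT sets T211 and T231, so young WT sets held both high and low levels. Gm17575 and Platr30, neighbouring non-coding genes on chromosome 3, ranged from 8.74 to 52.5 and from 10.7 to 38.2 CPM in old WT and from 0.776 to 4.42 and from 1.81 to 3.95 in old Tet1KO. Ccdc73, on chromosome 2 outside the 5 Mb windows, ranged from 19.4 to 69.6 CPM and from 4.4 to 11.4. Cgn, the tight junction protein cingulin, ranged from 79.6 to 151 CPM and from 17.6 to 65.8 (log2 -1.54, SE 0.26, adjusted p = 0.0951 with edgeR). Calr, the chaperone calreticulin, ranged from 26.5 to 92.5 CPM and from 16.4 to 32.7, with overlap. Dazl, an RNA-binding protein that drives translation in the maturing oocyte, ranged from 1420 to 2562 CPM in old WT, and its knockout oocytes held 933, 1254, 328, 1321, 1533 and 505 CPM (log2 -1.28, SE 0.26, adjusted p = 0.150 with edgeR). Rbm44, an RNA-binding protein of germ cells, ranged from 22.7 to 44.6 CPM and from 0.259 to 11.2.

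Young sets were placed by which old group's mean they were nearer to on a log scale of CPM. For the 25 genes of next smallest p, young Tet1KO Young_Tet1-/-_201 was nearer to old Tet1KO for 20 and young WT Young_WT__246 for 17, while young WT sets T148, T211 and T231 were so for 0, 1 and 2 and young Tet1KO set T146 for 6. For the 5 called genes, Young_Tet1-/-_201 was nearer to old Tet1KO for 4, set T146 for 3, Young_WT__246 for 1 and the other young WT sets for 0. For Pnpla3 this rests on the set mean of 19.5 CPM, since most oocytes of Young_Tet1-/-_201 were at the wild-type level. It also rests on the log scale. In plain CPM, Pnpla3 in Young_Tet1-/-_201, and Celsr1 in Young_Tet1-/-_201 and set T146, lay nearer to old WT. Among the 970 genes higher at an unadjusted p under 0.05, Young_Tet1-/-_201 was nearer to old Tet1KO for 785, Young_WT__246 for 580 and set T146 for 227. Among the 824 lower, Young_Tet1-/-_201 was so for 497, Young_WT__246 for 335, which is a minority, and set T146 for 178. The numbered young sets, WT included, were thus nearer to old Tet1KO for most of the genes next in order, and the set T146, lacking Tet1, was not. The naming series of the titles goes with this split. Within the numbered young sets, Tet1KO was nearer more often than WT for each of these groups of genes. The parts of naming series and genotype were not tested.

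Genes were next grouped by function, in lists chosen with earlier results of these data known. Of all tested genes 49.0% were higher, and 6.73% were higher and 5.72% lower at an unadjusted p under 0.05, against which each list is to be read. The median of 13 of the 20 lists turned sign under at least 1 alternative. It kept its sign for 7: the methylation-silenced germline genes, spindle checkpoint, recombination and repair, egg coat and growth factors, mitochondrial genome, diphthamide synthesis and planar cell polarity. In the TET and demethylation list, 5 of 11 tested members were higher and 6 lower, with a median log2 change of -0.02 and no member past the test. Of the DNA methylation machinery, 6 of 17 were higher and 11 lower (median -0.14). Dnmt3a, the de novo methyltransferase of the growing oocyte, was at 145.9 to 311 CPM in old WT and at 183 to 567 in old Tet1KO (log2 0.72, SE 0.24, adjusted p = 0.297 with edgeR). It was the 1 member higher at an unadjusted p under 0.05, and 2 were lower, Zfp445 and Zbtb33. Their log2 changes were -0.74 and -0.53 (adjusted p = 0.305 and 0.364 with edgeR). Uhrf1, which guides maintenance methylation, was at 173 to 685 and 193 to 277 CPM (adjusted p = 0.499). Among the imprinted genes, which take their methylation marks in the germ line, 10 of 23 were higher and 13 lower (median 0.00). Kcnq1 and Kcnq1ot1, which overlap, were both higher, at medians of 83.3 and 134 CPM and of 13.6 and 21.4 CPM (adjusted p = 0.222 and 0.300), and Snrpn was lower at 35.3 and 18.7 (adjusted p = 0.284).

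Germline genes that DNA methylation silences in somatic cells were mostly lower: 18 of 20 tested members against 2 higher, 6 of them and 1 at an unadjusted p under 0.05 (5.72% and 6.73% of all genes), with a median of -0.34 and none past the test. Beside Dazl, Sycp3, of the axis of meiotic chromosomes, was at 35.1 to 123 CPM in old WT and 20.7 to 46.6 in old Tet1KO (log2 -1.32, SE 0.35, adjusted p = 0.220 with edgeR). Hormad1, of the same axis, had medians of 1.47 and 0.221 CPM, and Stk31 of 44.6 and 27.8 CPM. The list's median lay between -0.85 and -0.28 under the alternatives. Of the piRNA pathway, which silences transposons, 5 of 18 were higher and 13 lower (median -0.20); Tdrd12 had medians of 102 and 62.9 CPM (adjusted p = 0.297).

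Of the genes that hold chromosomes together until anaphase, 8 of 20 were higher and 12 lower (median -0.14). Sgo2b, a relative of the cohesin protector shugoshin, was at 11.9 to 33.3 CPM in old WT and 7.55 to 16 in old Tet1KO (adjusted p = 0.291), and Stag2, a cohesin subunit, at 38.7 to 75.7 and 22.6 to 37.7, without overlap (adjusted p = 0.311). Of the spindle assembly checkpoint, 10 of 25 were higher and 15 lower (median -0.12). Bub1, a checkpoint kinase, had medians of 32.9 and 18.8 CPM (adjusted p = 0.223). Knl1, the kinetochore scaffold that recruits it, had medians of 80.9 and 37.3 CPM (adjusted p = 0.212) and lies 2.41 Mb from Mfap1b. Of the recombination and repair genes, 12 of 28 were higher and 16 lower (median -0.06), with 2 and 7 at an unadjusted p under 0.05 (6.73% and 5.72% of all genes). Prkdc, a kinase of end joining, had medians of 8.62 and 22.5 CPM (log2 1.58, adjusted p = 0.206).

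Of the genes of meiotic arrest and maturation, 16 of 23 were higher and 7 lower (median 0.19, between -0.07 and 0.26 under the alternatives). At an unadjusted p under 0.05, 1 of them was higher and 2 were lower (6.73% and 5.72% of all genes). Mapk3 was lower, at 27 to 201.2 CPM in old WT and 7.24 to 31.6 in old Tet1KO (log2 -1.95, SE 0.44, adjusted p = 0.172 with edgeR). Marf1, a regulator of meiosis and of retrotransposons, was at 68.4 to 108 and 39.2 to 65.3 CPM without overlap (adjusted p = 0.173). Of the genes that store and decay maternal mRNA, 14 of 29 were higher and 15 lower (median -0.07). Cpeb1, which binds the cytoplasmic polyadenylation element, had medians of 374 and 755 CPM (log2 1.03, SE 0.20, adjusted p = 0.146 with edgeR). Of the egg coat and growth factor genes, 5 of 16 were higher and 11 lower (median -0.30), with Zp3 at medians of 197 and 131 CPM (adjusted p = 0.413). Of the maternal-effect genes, 7 of 19 were higher and 12 lower (median -0.28, between -0.73 and 0.04 under the alternatives). Padi6, a component of the cytoplasmic lattices, was at 296 to 1702 CPM in old WT and 1192 to 6452 in old Tet1KO (adjusted p = 0.319), and Npm2, a histone chaperone, had medians of 185 and 118 CPM (adjusted p = 0.269). Of the 10 oocyte markers, 9 were lower and 1 higher (median -0.31).

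Each of the 13 proteins encoded by mitochondrial DNA had a lower transcript level, 4 of them at an unadjusted p under 0.05 and none past the test, with a median of -0.58 that lay between -0.90 and -0.26 under the alternatives. The share of counts from the mitochondrial genome was 0.503% to 1.51% in old Tet1KO oocytes (median 0.629%) and 0.173% to 2.17% in old WT (median 0.898%), so the oocytes overlapped fully. mt-Nd1, of respiratory complex I, had medians of 1898 and 1110 CPM (log2 -0.58, SE 0.23, adjusted p = 0.339 with edgeR). The nuclear genes of mitochondrial maintenance split into 9 higher and 10 lower of 19 (median -0.02), and those of oxidative stress defence into 15 higher and 7 lower of 22 (median 0.17). In oxidative stress defence, 1 gene was higher and 0 lower at an unadjusted p under 0.05 (6.73% and 5.72% of all genes). Sod1, the cytosolic superoxide dismutase, was not that gene and had medians of 77.4 and 41.4 CPM (adjusted p = 0.436).

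In the lists built around the called genes, none but the called gene itself passed, and each count and median below includes that gene. Among lipid hydrolases and lipid droplet genes, 11 of 20 were higher and 9 lower (median 0.02), Pnpla3 was the 1 that passed, and it was also the 1 with an unadjusted p under 0.05. Pnpla1, of the same family, was at medians of 1.78 and 0.620 CPM (adjusted p = 0.501). In planar cell polarity, 10 of 11 were higher and 1 lower (median 0.75, between 0.44 and 0.80 under the alternatives), with Celsr1 past the test and 4, Celsr1 among them, higher at an unadjusted p under 0.05 (6.73% of all genes). Vangl1, which acts with Celsr1 at cell borders, was at 0 to 3.03 CPM in old WT and 2.60 to 10.2 in old Tet1KO (adjusted p = 0.317), and Dvl3, a dishevelled protein, at 5.61 to 11.9 and 7.55 to 18.6 (adjusted p = 0.335). In diphthamide synthesis, 3 of 8 were higher and 5 lower (median -0.60, between -1.09 and -0.13 under the alternatives), with Dph6 past the test. Eef2, the elongation factor that carries diphthamide, had medians of 8.63 and 15.8 CPM (log2 1.21, SE 0.24, adjusted p = 0.146 with edgeR), and Dph1, an enzyme of the first step, of 0.794 and 2.45 (adjusted p = 0.233). Among spliceosome genes of the B complex and U5, 9 of 18 were higher and 9 lower (median 0.06), and Mfap1b passed. At an unadjusted p under 0.05, 1 was higher and 4 lower, Mfap1b among the 4 (6.73% and 5.72% of all genes). For 3, Mfap1b among them, all knockout oocytes lay below wild type (0.548% of all genes). Prpf8, the core U5 protein, was higher, with medians of 95.1 and 151 CPM (adjusted p = 0.397). Of the chromatin modifiers, 15 of 29 were higher and 14 lower (median 0.01), with Kdm1a, a histone demethylase, at medians of 27.3 and 16.7 CPM (adjusted p = 0.282). Among the markers of other cells that could be tested, 4 granulosa genes were higher and 3 lower, and none of the granulosa, stromal, macrophage or endothelial markers had an unadjusted p under 0.05.

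**Figure D4:**
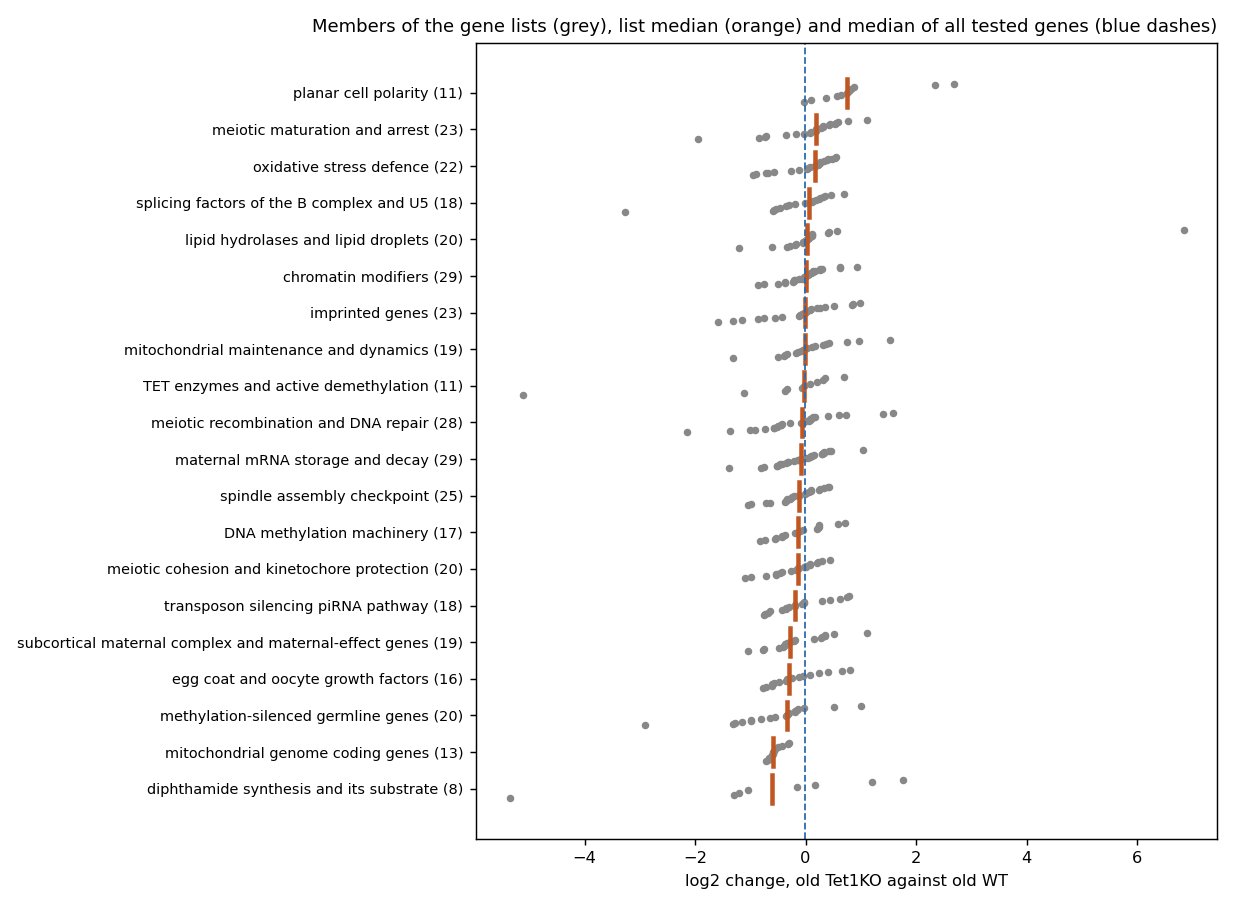
Log2 change in old Tet1KO against old WT of each tested member (grey points) of 20 gene lists, with the list's median in orange, the number of tested members in brackets and the median of all tested genes as blue dashes. Planar cell polarity has the highest median, 0.75, and the mitochondrial genome (-0.58) and diphthamide synthesis (-0.60) the lowest; the polarity and diphthamide lists include the called genes Celsr1 and Dph6.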

How the data were processed

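RNA of single ovulated oocytes was measured by sequencing, and the authors deposited gene counts without normalization, 1 column per library. Per the file headers, counts were made with featureCounts 1.6.2 on GENCODE mouse release 17 at a mapping quality of 30 or more and with no strand. Its options to count multi-mapped and overlapping reads for each gene were on, and the quality limit applied to multi-mapped reads too. HISAT2, SAMtools and mm10 stand in the submitters' processing notes. Of 133 oocytes in the labels, 94 matched a count column; the other 39, and 39 unmatched columns, were not used. No row lacked a gene identifier. In 41 pairs of old oocytes of a set none was identical, and their counts differed by more than sampling noise (lowest chi-square per degree of freedom 7.95).

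Oocytes were summed into 13 sets. Genes with at least 1 CPM in at least 2 sets were tested with the quasi-likelihood F test of edgeR 4.0.16 (R 4.3.3, TMM) in one fit of all sets, with a mean for each group, the naming series (numbered or lettered) as covariate and 6 residual degrees of freedom. P-values were adjusted by Benjamini-Hochberg. SE is the absolute log2 change over the square root of F; SDs are over sets. The test was checked on simulated counts. DESeq2 1.42.0 and limma 3.58.1 (log2 CPM, prior count 2) were alternatives. The members, the 25 gene lists and the rules were chosen with earlier results of these data known. Named are the Tet genes, all called genes, genes of next smallest p up to 15 each way at 10 CPM or more, up to 4 members of smallest p per list, genes overlapping a called gene, and the paralog Mfap1a; neighbours outside that rule are marked. Some genes that this rule names are not reported here.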

Additional observations from a re-analysis of the deposited data

Results flagged for a closer look

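In the group of 6 old Tet1KO oocytes, 18 measures were checked for an oocyte far from the others by Dixon's ratio at its 95% critical value, and chance marks about 1 in 20 such groups. The oocyte of Old_Tet1-/-_315 had the highest total, 8250490 counts, far above the others. Oocyte Old_Tet1-/-_209_6 had the highest mitochondrial share, 1.51% of counts, and the highest summed level of stromal and theca markers, 7.55 CPM, nearly all of it Dcn at 7.03 CPM. Oocyte Old_Tet1-/-_209_7 was the only one with a Tet1 count, at 0.232 CPM, and that single count is within what counting error allows.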

How the results depend on the processing

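All 5 called genes kept their direction under every alternative run. Counts of called genes depended on the tool and the samples. Against 3 higher and 2 lower, edgeR with DESeq2's size factors called 5 and 4, DESeq2 212 and 101, no CPM minimum 292 and 272 (of 33500 genes), the 6 numbered sets alone 10 and 5, the 4 old sets alone 9 higher, and a fit without the naming series 1 lower. Leaving out 1 old set gave 0 to 3 higher and 0 to 13 lower: 0 and 0 without Old_WT_247, 2 and 5 without Old_WT_365, 3 and 13 without Old_Tet1-/-_209, and 2 and 1 without Old_Tet1-/-_315. For the difference between ages, with 0 called each way, DESeq2 called 4 and 13, no CPM minimum 81 and 118, and the 6 numbered sets 1 higher; leaving out a set gave 0 to 1 higher and 0 to 2 lower. List medians that turned sign included DNA methylation machinery (-0.49 to 0.22), oxidative stress defence (-0.13 to 0.20), the piRNA pathway (-0.30 to 0.03) and cohesion (-0.31 to 0.02). Of 25 lists, 8 had a median above that of all genes, and 5 with no CPM minimum. In windows of 2 Mb, 2.5% of genes near Pnpla3 or Gm49513 were lower (6.86% at 5 Mb) and 0% near Tet1 higher (1.92%). In the same windows 21.1% near Celsr1 (12.9%), the called Pnpla3 and Gm49513 included, and 8.33% near Dph6 (1.82%) were higher. Near Tet1 7.14% were lower (3.85%). The cause was not tested.

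The sign of some log2 changes turned, with no such gene past the test. Leaving out 1 old set, Tet3 lay between -0.26 and 0.19, Mbd4 between -0.00099 and 0.65, Ogt between -0.98 and 0.12, Kitl between -0.0599 and 0.53, Ptgs2 between -7.06 and 1.58, Dcn between -1.96 and 1.15, C1qb between -0.90 and 0.34, Kdr between -0.0042 and 2.85, Pecam1 between -0.50 and 0.085, Tek between -0.44 and 0.37 and Samm50 between -0.081 and 0.63. Tet3 was at 0.00090 with DESeq2's size factors, 0.00061 with DESeq2 and 0.0052 with the old sets alone. Tek was at 0.0699 with limma and at 0.097 without oocytes Old_Tet1-/-_209_3 and Old_Tet1-/-_209_4, an alternative chosen after seeing the data, as was removal of the GC trend, which put Dcn at 0.062 and Tek at 0.0025. No paired analysis was possible because the sets compared share no replicate numbers. With 2 sets a group, 1 of them a single oocyte, the precision is low.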
